A study of Mus musculus with 6 samples.

Results

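The genes described here are the collagen genes, those whose symbol is Col followed by a number, a and a second number. All 44 such genes matched to the array had at least 1 probe, among 23462 genes matched in all. They were measured in brown adipose tissue (BAT), the thermogenic fat depot, of 3 wild type (WT) and 3 miR-22 knockout (KO) mice. All 6 mice were male and 8 weeks old, and they were named by group and number (WT1 to WT3, KO1 to KO3). The KO mice were global knockouts, so miR-22 was missing from every cell type of the tissue and not from brown adipocytes alone. Each mouse had an Agilent gene expression array of its own, read in a single colour. In such bulk tissue RNA, fewer cells of a type and less RNA per cell cannot be told apart.

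Collagens are triple helices of 3 chains, each chain the product of a collagen gene. Fibrillar collagens (types I, II, III, V, XI, XXIV and XXVII) form or shape the cross-striated fibrils that give tissue its tensile strength. Type IV collagen forms the sheet-like network of basement membranes, which in fat surround each adipocyte and each capillary. The remaining classes decorate fibrils (FACIT collagens), form beaded filaments next to cells (type VI) or hexagonal networks (types VIII and X), carry glycosaminoglycans in basement membrane zones (multiplexins), span the cell membrane (transmembrane collagens) or anchor epithelia (type VII). In adipose tissue most fibrillar collagen mRNA comes from fibroblast-like stromal cells.

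The RNA that separates the groups is miR-22. Both mature strands are printed, since the 3p strand is the guide usually meant by the name and the 5p strand comes from the same hairpin. Capitals mark the seed, bases 2 to 8 from the 5′ end, through which a miRNA pairs with its target mRNAs. The sequences and positions are those of RefSeq on GRCm38.p6, on the plus strand at chr11:75463772-75463793 for 3p and at chr11:75463734-75463755 for 5p.
mmu-miR-22-3p: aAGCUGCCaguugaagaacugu
mmu-miR-22-5p: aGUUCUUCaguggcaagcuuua
The array carried no probe for either mature strand, so their loss could not be checked on it, and whether collagen mRNAs hold a match to either seed was not examined.

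The tissue label was checked by its markers. Ucp1, the uncoupling protein of brown fat, Cidea, a lipid droplet protein, and Elovl3, a fatty acid elongase, were above background on all 6 arrays. The arrays WT3 and KO1 stood apart in quality, with 17.1 and 15.1% of spots marked as outliers by the scanner software, against 4.87 to 6.12% on the others. Of the 88 collagen spots, 13 were marked on WT3 and 10 on KO1, and 2 to 6 on each of the other arrays. Skeletal muscle markers also differed between mice, from a mean log2 signal of -4.25 in WT3 to 3.41 in KO2, in no order of the groups. Values without WT3 and KO1 are given for the class medians and for the genes called.

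Signals are given as log2 after subtraction of the 75th percentile of the same array, so that 0 is the level of that percentile. A gene was tested when a probe was above background on at least 3 arrays with at least 2 unmarked values per group. This left 33 of the 44 collagen genes. Another 6 were not above background on enough arrays, namely Col4a3, Col9a1, Col19a1, Col6a4, Col6a6 and Col28a1. The other 5, namely Col1a2, Col2a1, Col4a1, Col4a2 and Col12a1, lost their values to marked spots. Collagen genes that pass the filter are not the whole family, and those silent in the tissue are missing from the counts.

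Of the 33 genes tested, 4 were lower in KO mice (Col1a1, Col11a2, Col4a6 and Col8a2) and 3 were higher (Col13a1, Col20a1 and Col27a1), at an unadjusted p under 0.05 in limma, the threshold of the study's methods. Across all 14711 genes tested, 8.82% were lower and 10% were higher at the same threshold. The shares among the collagens, 12.1% lower and 9.09% higher, were close to that background, so the counts do not set the family apart. No collagen gene had a Benjamini-Hochberg adjusted p under 0.05, which 0.184% of all genes had. The median log2 difference of the 33 genes (KO minus WT) was -0.11, beside -0.03 for all genes, and over 20 other ways of processing it lay between -0.16 and 0.04. Complete values, 3 per group, were there for 29 of them, and for 9 of these KO and WT mice did not overlap (4 higher, 5 lower), while over all genes with complete values the groups were apart for 28.9%.

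**Figure D1:**
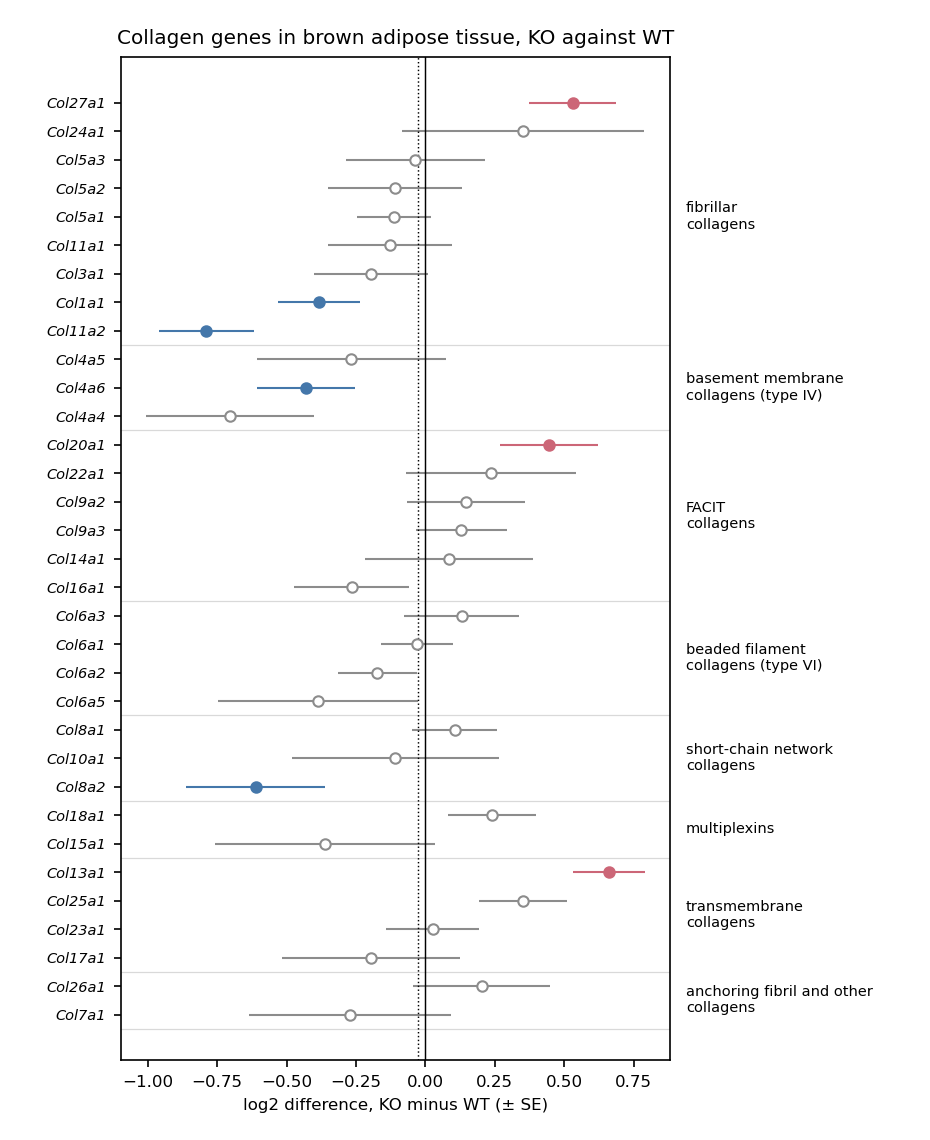
Log2 difference (KO minus WT) of the 33 collagen genes tested, by class, with bars for the standard error from limma. Blue points are the 4 genes lower and red points the 3 higher at an unadjusted p under 0.05, open points the others, and the dotted line marks the median of all genes at -0.03; the calls go both ways and are spread over 5 of the 8 classes.

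The fibrillar genes moved in both directions. Of the 11 genes, 9 were tested, 2 were lower and 1 was higher, beside 8.82% lower and 10% higher among all genes. The median log2 difference of the 9 was -0.11. Type I collagen, the main fibril protein of connective tissue, is built from the products of Col1a1 and Col1a2. The log2 signal of Col1a1 was 3.02, 2.99 and 2.82 in WT and 2.43, 2.51 and 2.75 in KO mice. The groups did not overlap, but WT3 and KO3 were only 0.07 apart. The difference was -0.38 ± 0.15 (SE, n = 3 per group), or 0.767 of the WT level, with a limma p of 0.0360 and an adjusted p of 0.235.

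Col1a1 was the collagen gene with the most spots, which allowed its variation between the spots of an array to be read directly. The tested probe was printed on 10 spots, and its unmarked spots varied within an array by a standard deviation of 0.04 to 0.06. The means of the mice of a group varied by a standard deviation of 0.11 in WT and 0.17 in KO mice. With 1 array per mouse, variation between arrays and variation between mice cannot be told apart in these values. A second probe, also on 10 spots, gave a difference of -0.36, with spots that varied by 0.04 to 0.35 and with groups that overlapped. The single spot of the third probe read 2.46, 2.61 and 2.42 in WT and 1.66, 1.86 and 2.0 in KO mice, a difference of -0.66 without overlap. All 3 probes were thus lower in KO mice on average, and the order KO1, KO2, KO3 was the same on each.

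**Figure D2:**
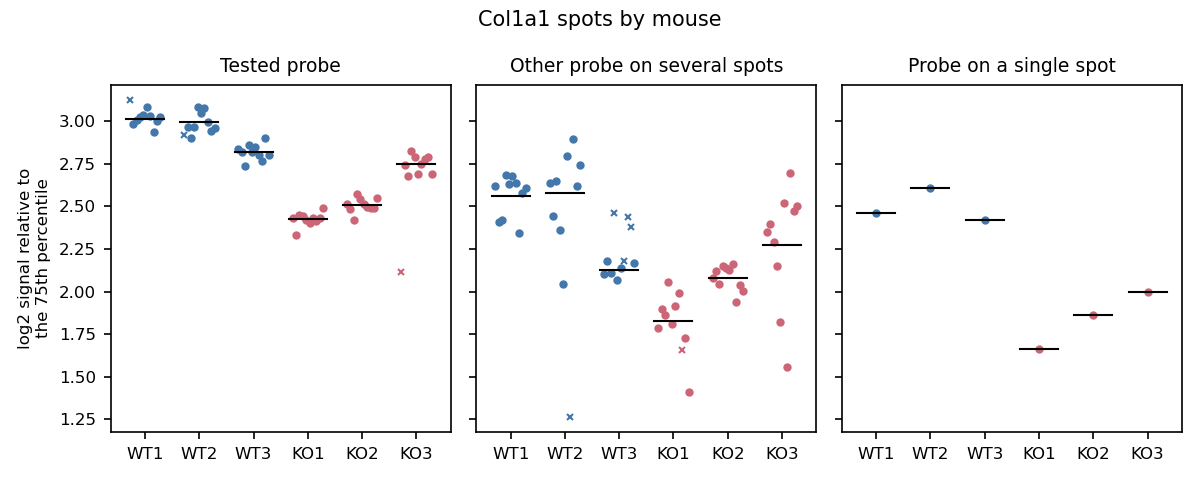
Log2 signal relative to the 75th percentile of the array for every spot of the 3 Col1a1 probes, by mouse (WT blue, KO red), with black lines for the mean of the unmarked spots and crosses for marked spots. On the tested probe the spots of a mouse lie close together and WT3 (2.82) and KO3 (2.75) nearly meet, whereas the second probe overlaps between groups and the single spot of the third does not.

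The call of Col1a1 depended on the processing. It held in 9 of 20 alternatives, always with the same sign. It was lost with quantile normalization, where the difference was -0.21, in the authors' processed values (-0.20) and without WT3 and KO1 (-0.38). SAM and the absence of a filter on dim probes (both -0.38) lost it too, as did marked spots kept with quantile normalization (-0.23). With the slide row as a blocking term, which compares the KO mice with WT3 alone, the difference was -0.26. The call did not hold there. It was also lost when any of WT1, WT2, KO1 or KO2 was left out. The partner chain gene Col1a2 had marked spots on 3 of 6 arrays. Its signals with these kept were 4.23, 4.24 and 4.26 in WT and 3.87, 4.13 and 4.34 in KO mice, which overlapped and differed by -0.13 ± 0.17 (SE). Fibroblast markers, of which Pdgfra, Pdgfrb and Dpt define the list, were above background on all arrays for all 12 genes. With marked spots kept, their mean log2 signal was 1.48 to 1.70 in WT and 1.40 to 1.77 in KO mice, so it overlapped between the groups. The log2 of their summed signal, 5.91 to 6.11 in WT and 5.82 to 6.10 in KO mice, overlapped too. Single genes of the list went apart in both directions. Dpt (1.58 to 2.14 in WT, 2.21 to 2.58 in KO mice) was higher, as was Pdgfrb by a narrow gap. Thy1 (1.01 to 1.41 in WT, 0.73 to 0.91 in KO mice) was lower. Of the 10 tested, 4 were below 0 in log2 difference, beside 7779 of all 14711 genes tested. The part of fibroblasts in the Col1a1 values was not tested.

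Col11a2 was the fibrillar gene with the firmest call. It encodes a chain of type XI collagen, which sits inside thin fibrils and is best known from cartilage. Its log2 signal was -2.78, -2.44 and -2.70 in WT and -3.51, -3.59 and -3.18 in KO mice, without overlap. The difference was -0.79 ± 0.17 (SE), 0.579 of the WT level, with a limma p of 0.00254 and an adjusted p of 0.0957. It was called in all 20 alternatives, with differences from -0.95 to -0.63 and adjusted p-values from 0.060 to 0.544. WT3, the mouse with little muscle signal, lay between the other WT mice, and the part of muscle in the Col11a2 values was not tested. Col11a1, which encodes another chain of the same trimer, differed by -0.13 ± 0.22 (SE), and its groups overlapped.

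Tendon and cartilage markers are given beside Col11a2 because type XI collagen is abundant there. Of the 9 markers, Mkx, Acan, Matn1 and Matn3 were above background on no array, the last 3 being named after their values were seen. Scx, a tendon transcription factor, was above background on all 6 arrays and Tnmd, a tendon membrane protein, on 5. Sox9, a cartilage transcription factor also named after its values were seen, was the single gene of the list called. Its log2 signal was -1.39, -1.86 and -2.38 in WT and -0.83, -0.60 and -1.15 in KO mice, higher in KO mice by 1.02 ± 0.28 (SE, adjusted p = 0.138). The log2 of the summed signal of the list, which includes Sox9, was -1.11 to -0.54 in WT and -0.42 to 0.23 in KO mice. The part of such cells in the Col11a2 values was not tested. Col2a1, the cartilage fibril gene, had marked spots on 4 arrays and with these kept ranged from 1.19 to 2.54 in WT and from 1.42 to 2.49 in KO mice.

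Col27a1 moved the other way within the same class. It encodes a fibrillar chain of thin, non-striated fibrils. Its log2 signal was -1.27, -1.29 and -1.36 in WT and -0.86, -0.95 and -0.51 in KO mice, and the WT mice lay within a narrow band below all KO mice. The difference was 0.53 ± 0.16 (SE), 1.44-fold, with a limma p of 0.0118 and an adjusted p of 0.157. The call held in 18 of 20 alternatives. It was lost without WT3 and KO1, at a difference of 0.55, and with the slide row as a blocking term. That term leaves WT3 as the only WT mouse compared with the KO mice, at a difference of 0.58.

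The other fibrillar genes did not pass the test. Col3a1, which encodes the single chain of type III collagen and forms fibrils together with type I, had 2 unmarked values per group, 4.36 and 4.25 in WT and 3.94 and 4.28 in KO mice. These overlapped, with a difference of -0.20 ± 0.20 (SE) that turned to 0.01 under quantile normalization. The type V genes, whose products start fibril assembly, differed by -0.11 ± 0.13 (Col5a1), -0.11 ± 0.24 (Col5a2) and -0.04 ± 0.25 (Col5a3, all SE). Col24a1 had a difference of 0.35 with the widest error of the family, 0.44 (SE), since KO2 read -4.16 and the other 5 mice -5.86 to -5.47.

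**Figure D3:**
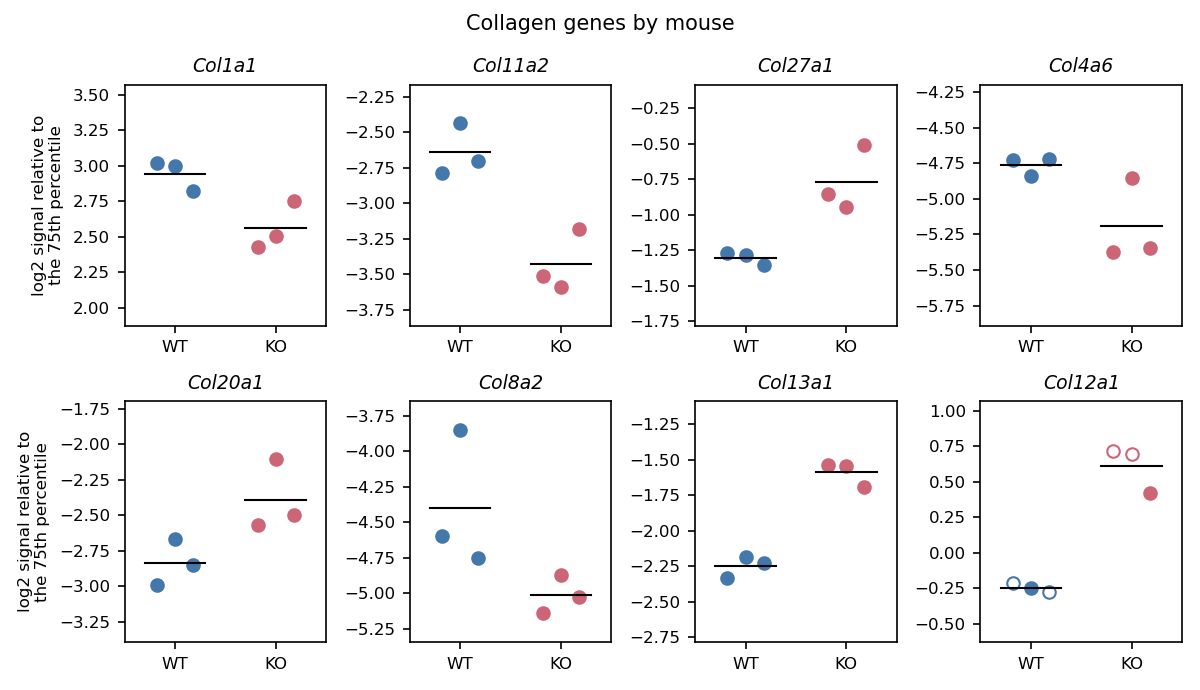
Log2 signal relative to the 75th percentile of the array in each mouse for the 7 collagen genes called at an unadjusted p under 0.05 and for Col12a1, with black lines for the group means and open points for marked spots. Every panel spans the same range of log2 units; Col11a2 and Col13a1 show the clearest gaps, and the gap of Col12a1 rests on marked spots in 4 of 6 mice.

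All type IV genes that could be tested were below 0, as were 7779 of all 14711 genes tested. Only 3 of the 6 type IV genes could be tested, and only 1 was called. Their median log2 difference was -0.43, and it stayed below 0 in each alternative that gave a median. Type IV trimers are assembled from the products of Col4a1 and Col4a2 in most basement membranes, including those of fat, and from the other 4 chains in specialised ones such as those of kidney and smooth muscle. Col4a6 had log2 signals of -4.73, -4.84 and -4.71 in WT and -5.37, -4.85 and -5.34 in KO mice. KO1, the lowest, was not above background. KO2 lay only 0.01 below WT2, so the groups were separated by less than the spread within either. The difference was -0.43 ± 0.18 (SE, adjusted p = 0.257), and the call held in 6 of 19 alternatives. Without WT3 and KO1 it was lost, at -0.32.

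Col4a4 showed a larger difference, -0.70 ± 0.30 (SE), which did not pass the test (limma p of 0.0529, adjusted p of 0.271). It was called in 7 of 19 alternatives, among them quantile normalization (-0.93), the authors' processed values (-0.94) and SAM. Its signals were -4.71, -4.88 and -4.75 in WT and -6.20, -5.18 and -5.06 in KO mice, without overlap. KO1, where the probe was not above background, was by far the lowest, and without this mouse the difference was -0.34, and without WT3 as well it was -0.33. Col4a5 had 2 unmarked values per group, -1.31 and -1.93 in WT and -1.55 and -2.23 in KO mice, and differed by -0.27 ± 0.34 (SE). A second probe of Col4a5 gave 0.36, so the sign was not settled.

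The chains of the widespread type IV trimer could not be tested, since their spots were marked on most arrays. With marked spots kept, Col4a1, marked on all 6 arrays, read 3.59, 3.35 and 3.60 in WT and 3.50, 3.17 and 3.34 in KO mice. Col4a2 read 3.12, 3.09 and 3.23 in WT and 3.17, 2.87 and 3.41 in KO mice. Both overlapped between groups, with differences of -0.17 ± 0.16 and 0.00 ± 0.18 (SE).

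Markers of vascular cells are given beside type IV. Endothelial markers, with Pecam1, Cdh5 and Kdr as the defining genes, had a mean log2 signal of 1.40 to 1.66 in WT and 1.46 to 1.57 in KO mice. Mural cell markers (Rgs5, Acta2 and Myh11 define the list) ranged from 2.42 to 2.50 in WT and from 2.23 to 2.44 in KO mice. Differences were tested with marked spots dropped, for Acta2 on a dimmer probe than in the list mean. Of the 7 tested, 5 were below 0 in log2 difference, beside 7779 of all 14711 genes tested, with a list median of -0.23. Myh11, smooth muscle myosin, was called lower (-0.37 ± 0.15 SE, adjusted p = 0.254). The part of these cells in the type IV values was not tested.

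Of the 27 genes of the remaining classes, 21 were tested, 1 was lower and 2 were higher. Over all genes the shares were 8.82% lower and 10% higher. The median log2 difference of the 21 was 0.08. This median changed sign with the scaling, to -0.07 under quantile normalization, -0.04 with normexp background correction and -0.07 in the authors' processed values. The medians of the 3 groups were thus -0.11 (fibrillar), -0.43 (type IV) and 0.08 (other), and members are not replicates, so no test was made between them. Each mouse was then set against the mean of each gene, over genes with values in all 6. The type IV median, over 2 such genes, was 0.34, 0.20 and 0.32 in WT and -0.74, 0.03 and -0.15 in KO mice. It was lowest in KO1, where neither gene was above background. The fibrillar median, over 7 such genes, lay between -0.19 (KO1) and 0.09 (KO2), and KO2 was level with WT1 and WT2.

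Col13a1, a transmembrane collagen of cell adhesions and of the neuromuscular junction, was higher in KO mice. Its log2 signal was -2.33, -2.18 and -2.23 in WT and -1.54, -1.54 and -1.69 in KO mice. The groups were 0.49 apart at their nearest mice, more than the range of 0.15 within either. The difference was 0.66 ± 0.13 (SE), 1.58-fold, with a limma p of 0.00141 and an adjusted p of 0.0815. It was called in all 20 alternatives, with differences from 0.42 to 0.71 and adjusted p-values from 0.053 to 0.508. WT1 and WT3, with the highest and the lowest muscle marker signal among WT mice (2.40 and -4.25), were 0.11 apart in Col13a1. This lies beside a WT range of 0.15, and the part of muscle in the Col13a1 values was not tested. Of the other transmembrane collagens, Col25a1, which is found in plaques of the brain and guides motor axons, did not overlap either but did not pass the test (0.35 ± 0.16 SE, adjusted p = 0.287). Its groups were only 0.01 apart at their nearest mice, and KO1 was not above background. Col17a1, the hemidesmosome collagen of skin, and Col23a1 overlapped.

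Col20a1 was the called member of the FACIT collagens. Its log2 signal was -2.99, -2.67 and -2.85 in WT and -2.57, -2.10 and -2.50 in KO mice. The groups were apart by 0.10 at their nearest mice. The difference of 0.44 ± 0.18 (SE, adjusted p = 0.246) was called in 6 of 20 alternatives. Without WT3 and KO1 it was 0.53 and not called. Of the 6 FACIT genes tested, 5 were above 0, while 7779 of all 14711 genes tested were below 0. Among the 5 were the type IX chain genes Col9a2 (0.14 ± 0.21) and Col9a3 (0.13 ± 0.16, both SE), and the class median was 0.14. Under quantile normalization Col9a2 and Col9a3 turned to -0.06 and -0.07. Col16a1 was the exception, with signals of -1.17, -1.31 and -1.35 in WT and -1.89, -1.15 and -1.59 in KO mice, which overlapped. A second probe of this gene gave 0.09 against -0.27 for the one tested.

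Col12a1, the FACIT collagen of dense connective tissue, could not be tested because its probe was marked on 4 arrays. With marked spots kept its log2 signal was -0.21, -0.25 and -0.28 in WT and 0.71, 0.69 and 0.42 in KO mice, without overlap. On the unmarked arrays, WT2 and KO3, the values were -0.25 and 0.42. The difference with all 6 arrays was 0.85, with an adjusted p of 0.0568 in limma. A second probe, above background on 2 arrays, gave 0.38 (adjusted p = 0.639) when no filter on dim probes was set. The part of the marks in this difference was not tested, and the gene is not among the counts.

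Type VI collagen, the filament that links cells to the fibrils around them and that is abundant in fat, showed no call among 4 genes tested. Col6a1 had signals of 1.55, 1.60 and 1.57 in WT and 1.43, 1.55 and 1.66 in KO mice and a difference of -0.03 ± 0.13 (SE), among the smallest errors of the family. Col6a2, its partner chain, differed by -0.17 ± 0.14 (SE). Col6a3, the long chain whose clipped end is the adipokine endotrophin, had 2 unmarked values per group, 2.25 and 2.22 in WT and 2.18 and 2.54 in KO mice. Its difference was 0.13 ± 0.21 (SE). Col6a5 varied most, with WT3 at -2.16 and KO3 at -3.78 around the others at -3.11 to -2.70.

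The type VIII chains went apart. Col8a2 was called lower, with signals of -4.59, -3.85 and -4.75 in WT and -5.14, -4.87 and -5.02 in KO mice. KO1 was not above background, the nearest mice were 0.12 apart, and WT2 stood out as high. The difference of -0.61 ± 0.25 (SE, adjusted p = 0.255) was called in 7 of 19 alternatives, and without WT2 it was -0.34. Col8a1, its partner in the network under endothelia, read -1.16, -1.22 and -1.22 in WT and -1.23, -0.84 and -1.20 in KO mice, a difference of 0.10 ± 0.15 (SE) with overlap.

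Among the multiplexins, Col18a1, whose C-terminal fragment is endostatin, read -0.26, -0.65 and -0.30 in WT and -0.29, -0.16 and -0.04 in KO mice. The groups overlapped, and the difference was 0.24 ± 0.16 (SE). Col15a1 differed by -0.36 ± 0.40 (SE), with KO1 at -5.32 as the lowest mouse. Col7a1, which encodes the anchoring fibril of skin, read 0.46, 1.18 and 0.63 in WT and 0.69, -0.28 and 1.05 in KO mice, so that KO2 set the difference of -0.27 ± 0.36 (SE). Keratinocyte markers, with Krt5, Krt14 and Krt15 as the defining genes, were above background on no array for 5 of 8 genes, these 3 among them. Of the rest of the list, Krt10 and Trp63 were above background on all 6 arrays and Dsp on 1. The part of such cells in the Col7a1 values was not tested.

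**Figure D4:**
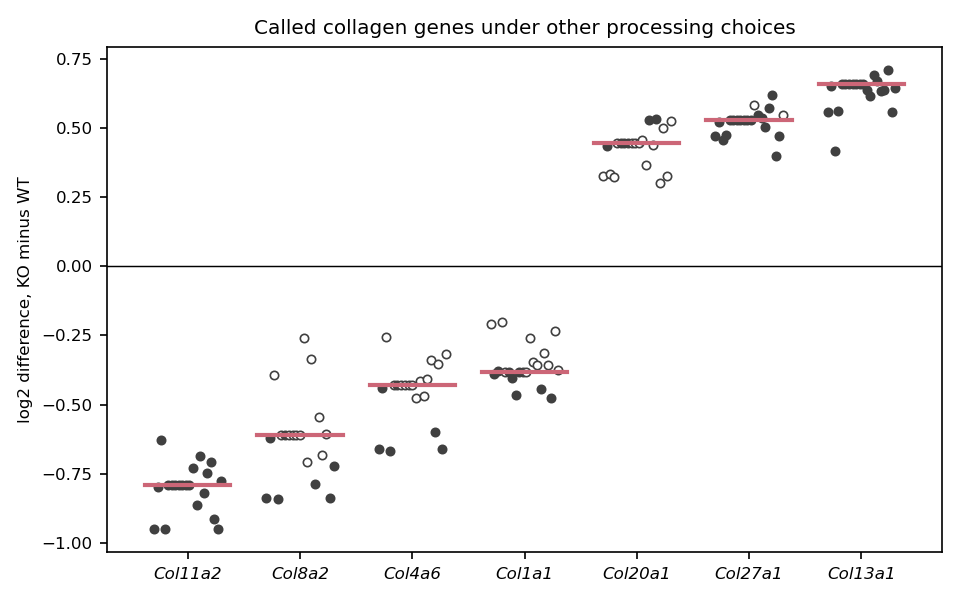
Log2 difference (KO minus WT) of the 7 called collagen genes, with a red line for the value reported and a point for each of up to 20 alternatives, filled where the unadjusted p was under 0.05. No point crosses 0; Col11a2 and Col13a1 are filled throughout, Col27a1 in 18 of 20, and Col1a1, Col4a6, Col20a1 and Col8a2 in 6 to 9.

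Across the family, 2 of the 7 calls, Col11a2 and Col13a1, held in all alternatives run. Neither gene had a marked spot or a second testable probe. Several alternatives therefore refit the same values of these genes and are not separate checks. Without WT3 and KO1, the calls left among 33 tested were Col11a2 (-0.78) and Col8a2 (-0.72) lower and Col13a1 (0.64) higher. The medians without these arrays were -0.17 (fibrillar), -0.32 (type IV) and 0.01 (other). Probes of a gene had opposite signs in 3 of the 8 genes with more than 1 testable probe (Col4a5, Col16a1 and Col23a1), none of them called. Of the called genes only Col1a1 had more than 1 testable probe, so for the others probes could not be compared.

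Genes that make, process and bind collagen were examined as well, in 8 lists of 119 genes. Of the 99 tested, 5 were lower and 8 were higher, and their median log2 difference was -0.06. These counts are no larger a share than the 8.82% lower and 10% higher among all genes. Tnc was the single gene with an adjusted p under 0.05.

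**Figure D5:**
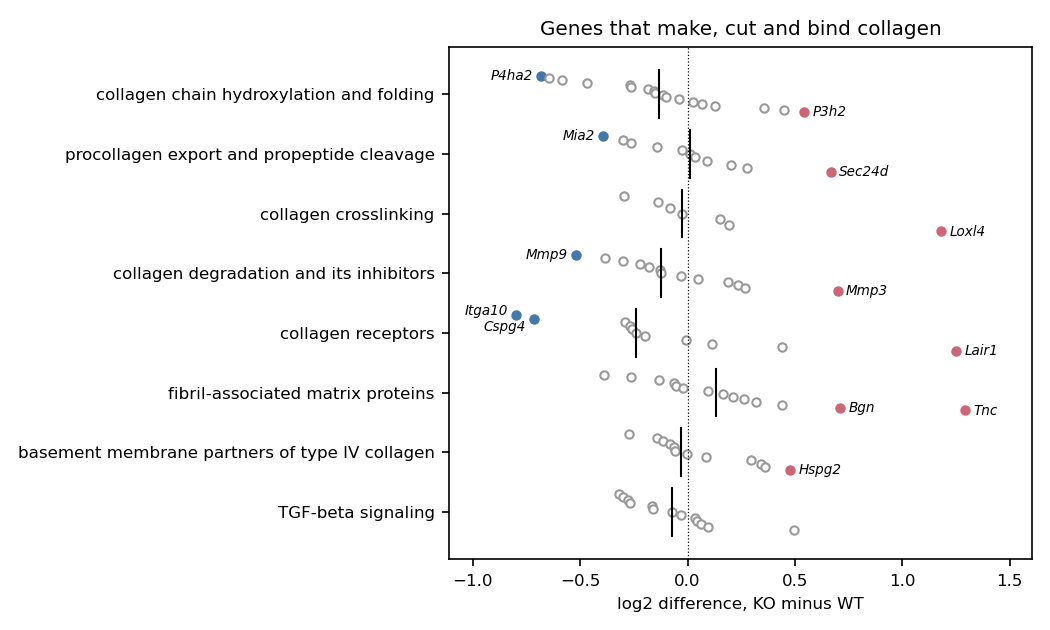
Log2 difference (KO minus WT) of 99 genes in 8 lists around collagen, with a point per gene, black lines for list medians, and named points in blue (lower) or red (higher) at an unadjusted p under 0.05. Tnc (1.29), Lair1 (1.25) and Loxl4 (1.18) are farthest to the right, and the list medians lie between -0.24 and 0.13.

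Of 14 proteins that bind fibrils, 2 were higher and none was lower in limma, beside 10% higher among all genes, and the list median was 0.13. Tnc encodes tenascin C, a matrix glycoprotein made during tissue remodelling. Its log2 signal was -0.90, -1.08 and -0.70 in WT and 0.44, 0.28 and 0.47 in KO mice, far apart and each group narrow. It rose by 1.29 ± 0.15 (SE, adjusted p = 0.0432 in limma) and was called at an unadjusted p under 0.05 in all 20 alternatives, although the adjusted p reached 0.342. Bgn, the proteoglycan biglycan, was higher by 0.71 ± 0.26 (SE, adjusted p = 0.216), with KO1 at -2.84 close to WT1 at -2.95. The call of Bgn was lost in 8 of 20 alternatives, among them those without WT2, WT3 or KO2.

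Enzymes that modify and fold the chains in the endoplasmic reticulum held 1 call in each direction among 18 tested. Over all genes 8.82% were lower and 10% higher. P4ha2, a subunit of the prolyl 4-hydroxylase that stabilises the triple helix, read 2.28 and 2.63 in WT1 and WT2 (WT3 was marked) and 1.91, 1.71 and 1.69 in KO mice. It was lower, with a difference of -0.68 ± 0.18 (SE, adjusted p = 0.146), and this held in all 17 alternatives in which it was tested. P3h2, a prolyl 3-hydroxylase acting mainly on type IV collagen, was higher by 0.54 ± 0.18 (SE, adjusted p = 0.192), a call lost in 8 of 20 alternatives, among them those without WT2, KO2 or KO3. In export from the cell, Sec24d, the coat protein of the large vesicles that carry procollagen, was higher by 0.67 ± 0.14 (SE, adjusted p = 0.0914). Its signals, -0.22, -0.48 and -0.37 in WT and 0.40, 0.19 and 0.34 in KO mice, did not overlap, and it was called in all 20 alternatives. Mia2, a cargo receptor of the same step, was lower, with a difference of -0.39 ± 0.12 (SE, adjusted p = 0.174), while another of its probes, used when marked spots were kept, gave 0.73 (adjusted p = 0.291). Its call held in 12 of 20 alternatives.

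Among crosslinking enzymes, Loxl4 of the lysyl oxidase family was higher by 1.18 ± 0.34 (SE, adjusted p = 0.154), from signals of -5.91 to -5.07 in WT and -4.92 to -3.78 in KO mice, and the other 6 were not called. The call of Loxl4 held in 17 of 19 alternatives. Of 13 genes for collagen breakdown and its inhibition, Mmp3, stromelysin, was higher by 0.70 ± 0.25 (SE, adjusted p = 0.210). This call was lost in 5 of 20 alternatives, among them those without WT1, WT2 or KO3. With the slide row as a blocking term, which compares the KO mice with WT3 alone, the difference was 0.22. Mmp9, a gelatinase, was lower, with a difference of -0.52 ± 0.15 (SE, adjusted p = 0.155), and the call held in 18 of 20 alternatives.

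Receptors for collagen had the lowest list median, -0.24 over 11 tested. Itga10, the alpha chain of an integrin that binds collagen, read -1.98, -1.60 and -1.87 in WT and -2.49, -2.45 and -2.91 in KO mice, a difference of -0.80 ± 0.18 (SE, adjusted p = 0.107). Cspg4, the NG2 proteoglycan that binds type VI collagen on pericytes, read 1.74, 2.13 and 1.83 in WT and 1.04, 1.26 and 1.26 in KO mice, a difference of -0.71 ± 0.16 (SE, adjusted p = 0.0997). Neither overlapped between groups, and both were called in all 20 alternatives. The part of mural cells, whose markers are given above beside type IV, in the value of Cspg4 was not tested. Lair1, an inhibitory collagen receptor of immune cells, was higher by 1.25 ± 0.37 (SE, adjusted p = 0.158), and the call held in 18 of 20 alternatives. Macrophage markers (Adgre1, Csf1r and Cd68 define the list) had a mean log2 signal of 0.85 to 1.13 in WT and 1.05 to 1.47 in KO mice, and their part in the value of Lair1 was not tested.

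Of 12 basement membrane partners of type IV collagen, Hspg2, perlecan, was higher by 0.48 ± 0.17 (SE, adjusted p = 0.208). With marked spots kept, another probe of this gene gave -0.24 (adjusted p = 0.416), so its direction rested on the probe, and the call held in 8 of 20 alternatives. None of the 13 genes of TGF-beta signaling tested, a main inducer of collagen transcription, was called in limma, and their median log2 difference was -0.07.

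Without WT3 and KO1, the related genes still called were Tnc (1.36), Bgn (0.86), P4ha2 (-0.75), P3h2 (0.71), Sec24d (0.62), Mmp3 (0.99), Itga10 (-0.89), Cspg4 (-0.67) and Lair1 (1.66). Those no longer called were Mia2 (-0.41), Loxl4 (0.85), Mmp9 (-0.47) and Hspg2 (0.45). None of the 13 changed sign.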

How the data were processed

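Gene expression in BAT of 6 mice (3 per genotype) was profiled on single-colour Agilent arrays. The authors deposited scanner intensity values per array (Agilent Feature Extraction 11.5.1.1 per the file headers, 10.7 in the submitters' processing notes) and a table of log2 values whose normalization is not stated, which held 39 of the 70 collagen probes. The deposited array annotation is on mm9. Probes were named through their RefSeq accession, which matched 33767 of 56605 probes.

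The processed signal was taken as log2 minus the 75th percentile of the array's spots, controls excluded. Spots that the software marked as outliers (uneven within the spot, or far from their copies) were dropped, and the unmarked spots of a probe were averaged. Tested probes were well above background on 3 or more arrays and had 2 or more unmarked values per group. The brightest such probe stood for its gene, a choice that also fixes which probe is named when probes disagree. Means and sums of marker lists instead used the brightest probe of each gene with marked spots kept. Groups were compared over all 14711 genes with lmFit and eBayes of limma 3.58.1 (R 4.3.3, data.table version 1.17.8), two-sided, with Benjamini-Hochberg adjustment over all genes. Figures were drawn with matplotlib 3.10.9. The limma, t-test and SAM fits were run on simulated gene values, complete with 3 per group. The steps before the fits, and missing values, were not simulated. The study describes its controls as littermates, but the labels do not say which mice shared a litter, and 3 arrays per group limit the precision, given as SE.

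Values in every mouse are given for genes called, for the brightest tested gene of each class, and, after their values were seen, for genes lost to marked spots, Col4a4 and the firmest related genes. Not every marker list examined is reported here. The members, lists and tests were chosen with earlier results of these data known. The 20 alternatives were quantile and median scaling, normexp correction (offset 50), the authors' processed values, no filter or a filter of all 6 arrays on dim probes, marked spots kept, the mean of a gene's probes, eBayes with trend and robust, the methods' t-test, SAM, slide row as a blocking term, each mouse left out and, chosen after seeing the data, marked spots kept with quantile normalization and both arrays with the most marked spots left out.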

Additional observations from a re-analysis of the deposited data

How the results depend on the processing

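The number of collagen genes lower in KO mice, 4, was 1 with no filter on dim probes and with slide row as a blocking term. It was 2 with signal above background required on all 6 arrays, averaged probes, eBayes with trend and robust, the methods' t-test, SAM, and, chosen after seeing the data, without both arrays with the most marked spots (WT3 and KO1). It was 1 to 4 when each mouse was left out in turn, with 1 when WT1, WT2 or KO1 was missing. The number higher, 3, was 1 without both of those arrays and 2 to 4 when a mouse was left out. The cause was not tested, apart from the smaller number of genes or mice that some settings leave. The median of the classes that are neither fibrillar nor type IV, 0.08, was -0.069 with quantile normalization, -0.038 with normexp, -0.067 in the authors' values, -0.065 with marked spots kept and quantile normalization, 0.013 without WT3 and KO1, and 0.0087 to 0.13 when a mouse was left out. The fibrillar median, -0.11, was 0.016 with marked spots kept and quantile normalization and -0.22 to -0.065 when a mouse was left out. The type IV median was -0.60 to -0.34 when a mouse was left out.

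No called collagen gene changed sign in any alternative, although some alternatives leave the values of a gene as they were. Among genes not called, several changed sign, and those given here are examples. Col3a1 turned to 0.0054 with quantile normalization and to 0.016 with marked spots kept as well. With quantile normalization Col5a3 turned to 0.066, Col9a2 to -0.061 and Col9a3 to -0.069. Col5a2 turned to 0.15 without KO3 and Col24a1 to -0.19 without KO2. When a mouse was left out, Col8a1 ranged from -0.020 to 0.18 and Col7a1 from -0.55 to 0.11. The tested probe of Col4a5 stayed at -0.27 without WT3 or KO1. Without any of the other mice a second probe stood for Col4a5, with differences from -0.45 to 0.75. Through another probe, Mia2 turned to 0.73 with marked spots kept and 0.80 with quantile normalization added, and Hspg2 to -0.24 and -0.032. Genes near background, such as Col4a6, Col4a4 and Col8a2, are limited by signal, since KO1 had only 55.8% of its spots above background. No paired analysis was possible because the labels give no numbers that the WT and KO mice share. The row of the slide stands in for position, and WT1 and WT2 alone lay on the first row.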
